A study of Mus musculus with 6 samples.

Results

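Regulatory T cells (Treg cells) and conventional CD4 T cells taken from the same control tumours were compared in 3 mice. MC38 colon carcinoma cells, an established mouse tumour line, had been grown under the skin, and CD45+ leukocytes were sorted from the tumours on day 25 for 5′ single-cell RNA sequencing with matched T cell receptor sequencing. The control group (ctr, 3 biological replicates) is labelled as Ctcf wild type in Tregs. The other group (cko, 3 replicates) is labelled as Ctcf knockout in Tregs, with a deletion that tamoxifen induces. It is used here only in a closing comparison. The Cre driver, the strain, the age and the tamoxifen treatment of the controls are not given in the sources used here.

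A cell counted as a CD4 T cell when it had at least 300 genes, at least 500 unique molecules (UMIs), at most 10% mitochondrial UMIs, a sequenced TRB chain, a Cd4 UMI and no UMI of Cd8a or Cd8b1. A CD4 T cell entered the Treg gate with at least 2 of the genes Foxp3, Ikzf2, Il2ra, Ikzf4 and Lrrc32 detected, and the conventional gate with none of them. Of 41679 barcodes in the series, 19532 control cells passed the quality limits and 2112 were CD4 T cells. The Treg gate held 374, 409 and 487 cells in ctr 1, ctr 2 and ctr 3 (1270 in all), and the conventional gate held 136, 60 and 223 (419 in all), which makes 1689 cells compared. A further 423 CD4 T cells had exactly 1 of the 5 genes and entered neither gate. The Treg gate made up 61.5% ± 10.1 of the CD4 T cells (SD, n = 3) and the conventional gate 18.8% ± 7.28.

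The control libraries held between 54224947 and 55515267 UMIs in all, and shared 51 to 68 cell barcodes with each other by pairs. The summed Treg cells held 2983507 to 3765573 UMIs per sample, and the summed conventional cells 339347 to 1130755, so conventional levels are less precise, above all in ctr 2. In cko, replicates 1 and 3 shared 199 T cell receptor clonotypes, while no other pair of the 6 libraries shared more than 3. Results that use cko are therefore given with those replicates apart and added together.

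Treg cells hold immune responses in check, and the transcription factor Foxp3 sets their identity. They are known to act through the receptor CTLA-4, which takes costimulatory ligands away from antigen-presenting cells, through capture of interleukin 2 (IL-2), and through suppressive cytokines. Conventional CD4 T cells help other cells through CD40 ligand and cytokines, and less differentiated ones keep the transcription factor TCF-1, encoded by Tcf7, and the exit receptor S1PR1. In tumours, Treg cells are known for high levels of CTLA-4 and of receptors of the TNF receptor family.

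Each T cell carries a receptor of an alpha chain (TRA) and a beta chain (TRB). Their junctions vary widely, so cells of the same tumour with the same pair of junctions are taken to share an ancestor. The rule is not strict: CD4 T cells of ctr 1 shared 1 clonotype with ctr 2 and 1 with ctr 3. In ctr 3, 2 clonotypes had both Treg-gate and CD8 T cells. A clonotype here is a TRA and TRB pair with identical V genes, J genes and junction bases. The beta junctions of the largest Treg and the largest conventional clone of each tumour are shown first, because cells of the 2 gates can carry the same letters. Letters run 5′ to 3′, and capitals mark the bases that match neither the V nor the J segment in the annotation (GENCODE M21, GRCm38), that is, the D segment with the added bases.
ctr 1, largest Treg clone, TRBV3 and TRBJ2-3: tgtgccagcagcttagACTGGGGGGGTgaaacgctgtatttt
ctr 2, largest Treg clone, TRBV1 and TRBJ2-3: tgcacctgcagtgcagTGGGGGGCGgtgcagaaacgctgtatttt
ctr 3, largest Treg clone, TRBV5 and TRBJ2-3: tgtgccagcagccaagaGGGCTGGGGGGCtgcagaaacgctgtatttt
ctr 1, largest conventional clone, TRBV3 and TRBJ2-7: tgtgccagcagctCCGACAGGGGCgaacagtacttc
ctr 2, largest conventional clone, TRBV13-3 and TRBJ2-4: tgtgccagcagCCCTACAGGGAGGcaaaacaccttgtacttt
ctr 3, largest conventional clone, TRBV5 and TRBJ2-7: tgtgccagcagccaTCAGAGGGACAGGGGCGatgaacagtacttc

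The alpha junctions of the 3 large Treg clones complete the receptors.
ctr 1, largest Treg clone, TRAV13-1 and TRAJ43: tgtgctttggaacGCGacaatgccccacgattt
ctr 2, largest Treg clone, TRAV6N-7 and TRAJ23: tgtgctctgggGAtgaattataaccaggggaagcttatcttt
ctr 3, largest Treg clone, TRAV6-6 and TRAJ9: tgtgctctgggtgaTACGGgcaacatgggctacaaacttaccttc

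The largest Treg clone held 20 Treg cells in ctr 1, 23 in ctr 2 and 27 in ctr 3. The same receptors also occurred outside the Treg gate: the ctr 1 clone had 2 conventional cells and 2 cells with 1 gate gene, the ctr 2 clone had 1 and 3, and the ctr 3 clone had 0 and 5. The largest conventional clones were small, at 5, 2 and 3 conventional cells. In ctr 2 there were 2 clonotypes of that size and in ctr 3 there were 6. The one shown is the first in alphabetical order, starting from the name of the alpha V gene. The clones shown also had 3, 1 and 1 Treg cells. All 3 large Treg clones used TRBJ2-3 (chr6:41543223-41543271, plus strand, GRCm38), and their capitals are rich in G like the Trbd2 segment (chr6:41542163-41542176, plus strand), whose germline is gggactgggggggc. Over all clonotypes this J segment was used by 10.7% ± 0.691 in the Treg gate and 11.4% ± 7.32 in the conventional gate, and at least 7 bases in a row from Trbd2 were found in 32.1% ± 2.72 and 30.7% ± 4.47 (SD, n = 3). These features were looked at after the large clones had been seen, and over clonotypes the gates differed by less than the spread between samples.

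The cells were chosen by detected UMIs of the 5 gate genes, of Cd4, Cd8a and Cd8b1, so the values of these genes are a description. In the Treg gate, a UMI was found for Ikzf2, which encodes Helios, in 93.1% ± 3.01 of cells, and for Il2ra, the alpha chain of the high-affinity IL-2 receptor, in 76.5% ± 4.99. Foxp3 itself was found in 32.1% ± 3.10, against 0.480% ± 0.153 of CD8 T cells of the same tumours. Within the Treg gate 61.0% ± 5.92 of cells had at least 3 of the 5 genes, and 19.1% ± 2.67 rested on Ikzf2 and Il2ra alone. Those genes are also read in CD8 T cells, where Ikzf2 was found in 26.3% ± 3.68 and Il2ra in 22.7% ± 4.12. By the same rule 11.6% ± 0.963 of CD8 T cells would have passed the limit of 2 genes, and 1.18% ± 0.285 a limit of 3.

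Cells just inside the limit (2 genes) and just outside it (1 gene) lay between the ends of the range. Ctla4, in plain CPM (counts per 1000000 UMIs), stood at 466 ± 183 with no gate gene, 857 ± 309 with 1, 1270 ± 459 with 2 and 1589 ± 498 with 4 or 5 (SD, n = 3). Tcf7 stood at 155 ± 35.5, 57.7 ± 25.4, 12.6 ± 6.73 and 7.18 CPM. The steps from 1 gene to 2 were larger for Tcf7 and for S1pr1 (41.2 ± 14.3 against 9.99 ± 2.83 CPM) than the steps beyond 2.

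**Figure D1:**
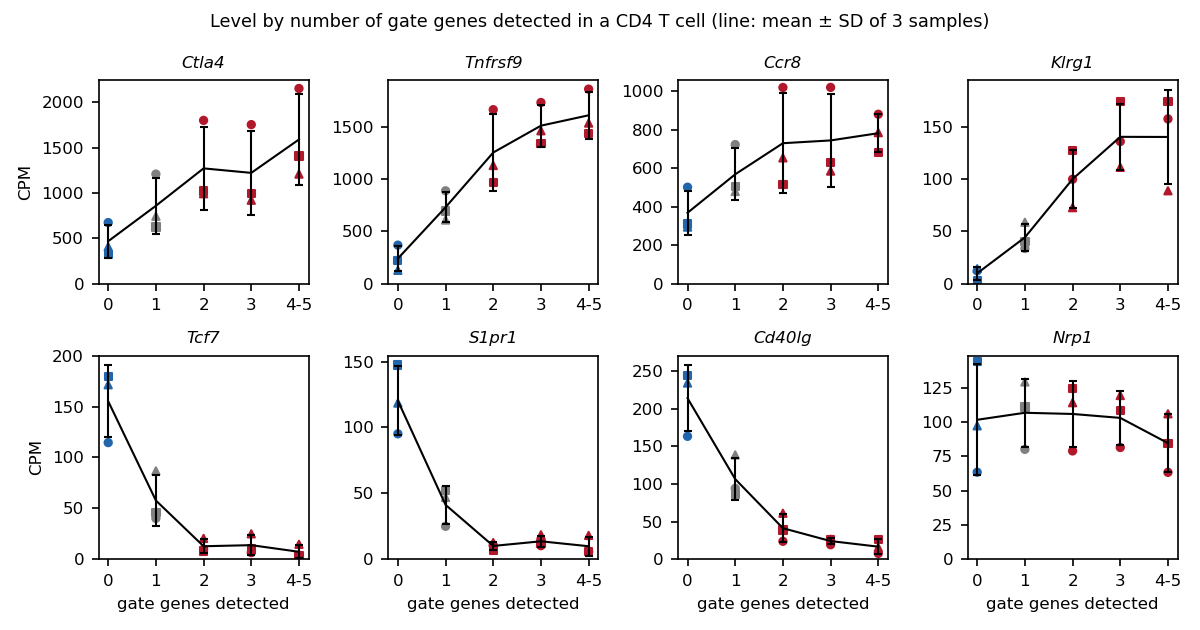
Plain CPM of selected genes in CD4 T cells of the 3 control tumours, against how many of the 5 gate genes a cell showed; points are samples, lines and bars the mean and SD. Mean Ctla4 goes from a mean of 466 CPM with no gate gene to 1589 CPM with 4 or 5, and mean Tcf7 from 155 to 7.18 CPM.

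The Treg cells were read more deeply. The median Treg cell had 6214 ± 659 UMIs and 2142 ± 126 genes, and the median conventional cell 4723 ± 411 UMIs and 1732 ± 124 genes (SD, n = 3). Both were higher in the Treg gate in 3 of 3 tumours (exact paired permutation test, two-sided, p = 0.25, the smallest that 3 pairs allow). A gate that asks for detected genes admits deeply read cells more easily, so the counts below were also taken with gates and sums made on cells thinned to 2000 UMIs, and are given where they moved by over 1.5 times. Cells with a UMI of Mki67 or Top2a, which mark dividing cells, were 32.5% ± 2.59 of the Treg gate and 23.3% ± 7.96 of the conventional gate. The part of depth and division in the results was not tested beyond those alternatives.

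Of 9482 genes tested on sums per sample and gate, with the tumour as a block, 839 (8.85%) passed an adjusted p of 0.05 in edgeR's quasi-likelihood test. Of these 450 (4.75%) were higher in the Treg gate and 389 (4.10%) lower. The median log2 fold change over all genes was -0.01. Levels per sample below are CPM of the summed UMIs after scaling by trimmed mean of M-values (TMM), listed in the order ctr 1, ctr 2, ctr 3, and log2 fold changes are Treg over conventional with their standard errors. For 2307 genes (24.3%) the 3 values of one gate did not overlap the 3 of the other, so that lack of overlap alone is common here. Without the tumour as a block 203 genes were called higher and 173 lower, and 201 and 170 of them were among those above. Without ctr 3 the counts were 153 and 148, without ctr 1 296 and 196, and with gates and sums made on cells thinned to 2000 UMIs 251 and 195 of 5488 genes.

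**Figure D2:**
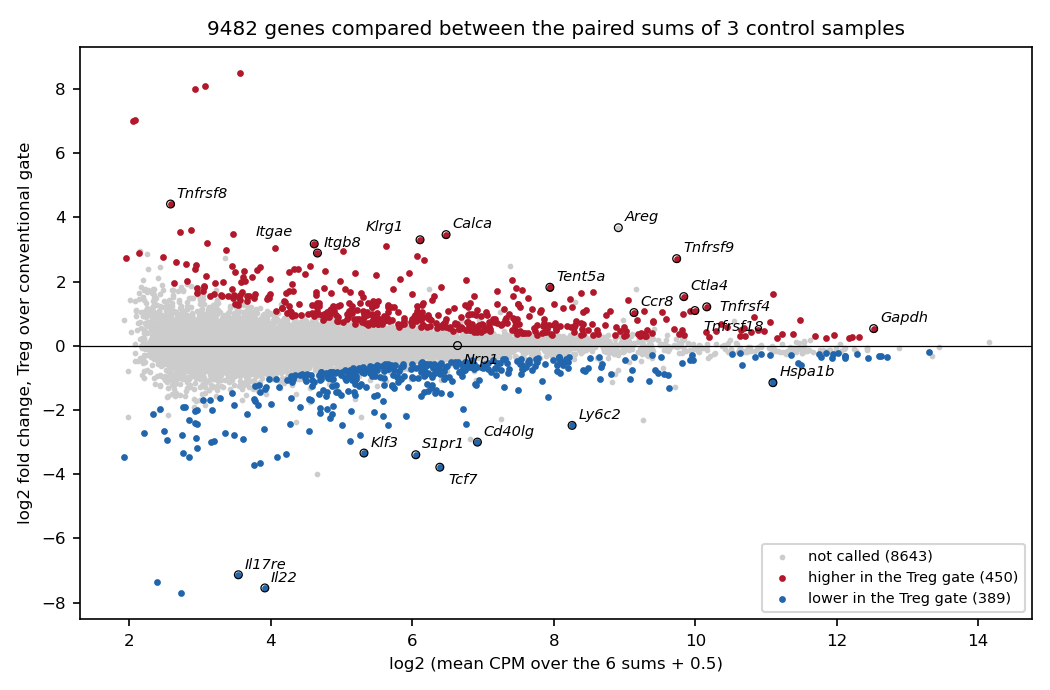
Log2 fold change, Treg over conventional, against mean level (log2 CPM) for the 9482 genes tested; each point is a gene, coloured where its adjusted p is below 0.05. The 450 genes called higher and the 389 called lower lie on both sides of a cloud centred at -0.01.

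The receptors that steer T cell activation were mostly higher in the Treg gate. Of 20 costimulatory and checkpoint genes tested, 12 rose, 1 fell and 7 did not pass, with a median log2 fold change of 0.74. Ctla4 (chr1:60887000-60915832, plus strand) stood at 1919, 1125 and 1029 CPM in Treg cells and at 693, 314 and 407 CPM in conventional cells. Every Treg value lay above every conventional value, a log2 fold change of 1.53 (SE 0.10, adjusted p = 2.8e-06). A Ctla4 UMI was found in 90.2% ± 5.23 of Treg cells and 58.4% ± 8.13 of conventional cells, and in 72.9% ± 11.6 and 43.0% ± 8.04 of cells thinned to equal depth. In myeloid cells of the same tumours, which should lack it, the share was 3.44% ± 1.88.

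Receptors of the TNF family were among the genes that rose. Tnfrsf9, which encodes 4-1BB, stood at 1764, 1262 and 1367 CPM against 380, 219 and 127 CPM, and Tnfrsf4, which encodes OX40, at 1905, 1493 and 1361 CPM against 799, 864 and 453 CPM. The groups did not overlap for either gene. The log2 fold change was 2.72 for Tnfrsf9 (SE 0.33, adjusted p = 0.0491) and 1.21 for Tnfrsf4 (SE 0.15, adjusted p = 0.00696). Tnfrsf9 lies close to the threshold, and its call was lost in 4 alternatives: without ctr 2, with another scaling (RLE), without cells with macrophage genes and without dividing cells. Tnfrsf18, which encodes GITR and neighbours Tnfrsf4 on chromosome 4, stood at 1620, 1249 and 1267 CPM against 809, 728 and 446 CPM (log2 fold change 1.10, SE 0.13, adjusted p = 0.00217). The Tnfrsf18 call was lost between the UMI quartiles of each sample, and the Tnfrsf4 call without dividing cells. Tnfrsf8, which encodes CD30, gave 105 UMIs in the Treg sums and 1 UMI in the conventional sums. Per UMI sequenced that is a ratio of 23.0, with a 95% interval for counting error from 4.04 to 918, and its call was lost without ctr 1 and without the block.

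Of the inhibitory receptors, Tigit and Pdcd1 rose. Tigit stood at 869, 744 and 674 CPM against 439, 236 and 209 CPM (log2 fold change 1.43, SE 0.14, adjusted p = 0.000339). Pdcd1, which encodes PD-1, stood at 570, 496 and 467 CPM against 428, 322 and 251 CPM (log2 fold change 0.64, SE 0.10, adjusted p = 0.00205). For both genes every Treg value was above every conventional value. Icos, a costimulatory receptor of the CD28 family, differed least among those named, at 741, 673 and 577 CPM against 535, 504 and 484 CPM (log2 fold change 0.38, SE 0.08, adjusted p = 0.0158). Lag3 did not pass (log2 fold change 0.45, adjusted p = 0.178), and was called higher in 3 of 17 alternatives. Cd28, the costimulatory receptor whose ligands CTLA-4 takes, was the gene that fell: 297, 236 and 283 CPM against 478, 412 and 438 CPM (log2 fold change -0.70, SE 0.09, adjusted p = 0.000425). Without the tumour as a block 3 genes of the list were called higher and 1 lower, and the calls of Ctla4, Tnfrsf4, Tigit, Pdcd1 and Icos were lost. Icos also lost its call without each tumour in turn, and Pdcd1 without ctr 3.

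**Figure D3:**
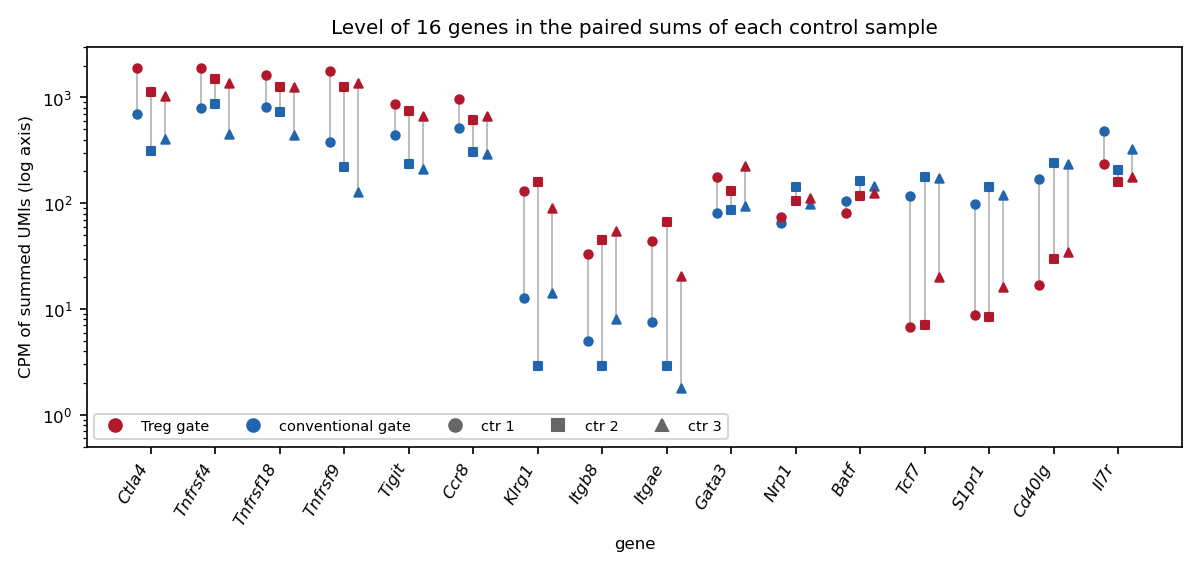
TMM-scaled CPM on a log axis for selected genes in the Treg and conventional sums of each control tumour; lines join the 2 sums of 1 tumour. Ctla4 and Tnfrsf9 are higher in the Treg sum in 3 of 3 tumours, and Tcf7, S1pr1 and Cd40lg are lower in 3 of 3.

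Genes of Treg suppression and tissue repair were higher too: of 18 tested, 11 rose and 0 fell, with a median log2 fold change of 0.79. Itgb8, the integrin chain that activates latent TGF-beta, stood at 33.3, 44.7 and 54.6 CPM against 5.03, 2.88 and 7.99 CPM (log2 fold change 2.89, SE 0.29, adjusted p = 6.92e-05). Klrg1, an inhibitory receptor of differentiated T cells, stood at 131, 160 and 90.4 CPM against 12.6, 2.88 and 14.2 CPM (log2 fold change 3.30, SE 0.28, adjusted p = 9.13e-05). Both were well apart between the gates and were called in every alternative run. A Klrg1 UMI was found in 30.2% ± 6.76 of Treg cells, 2.28% ± 0.638 of conventional cells and 3.15% ± 0.603 of CD8 T cells.

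Il10, the suppressive cytokine interleukin 10, was low in both gates, at 31.0, 20.3 and 37.4 CPM against 6.29, 0 and 16.9 CPM (log2 fold change 1.70, SE 0.35, adjusted p = 0.0104). Gzmb, the protease granzyme B, stood at 382, 241 and 209 CPM against 111, 31.7 and 82.5 CPM (log2 fold change 1.80, SE 0.24, adjusted p = 0.00943). Its UMIs were found in 21.8% ± 4.29 of Treg cells and 13.7% ± 3.83 of conventional cells, but in 65.7% ± 2.15 of CD8 T cells, and 6.66% ± 3.00 of myeloid cells showed one as background. Areg, the growth factor amphiregulin of tissue repair, had one of the widest gaps, at 793, 641 and 1224 CPM against 31.4, 37.4 and 161 CPM, yet did not pass (log2 fold change 3.68, SE 0.47, adjusted p = 0.0718). It was called higher in 6 of 17 alternatives. Its UMIs were found in 44.0% ± 4.31 of Treg cells and 7.85% ± 3.4 of conventional cells. Nrp1, a surface protein often used for Treg cells made in the thymus, stood at 74.4, 104 and 113 CPM against 65.4, 141 and 97.6 CPM, with overlapping values (log2 fold change 0.01, adjusted p = 0.992). A fit with no block called 6 genes of the list higher and 0 lower, and lost Il10 and Gzmb. On thinned cells 8 of 18 were higher and 2 lower, and without cells with 2 macrophage genes 12 of 17 and 2. Leaving out ctr 1 or ctr 3 left 7 called higher, and Il10 was lost without ctr 1. Both Il10 and Gzmb also lost their calls with a Treg gate of cells with a Foxp3 UMI. Gzmb was lost with gates and sums on thinned cells. Il10 was lost with a conventional gate of at most 1 gene and between the UMI quartiles of each sample.

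Among 24 transcription factors of Treg and helper cells tested, 6 rose and 4 fell, with a median of 0.15. Gata3, a factor of type 2 helper and tissue Treg cells, stood at 176, 130 and 224 CPM against 80.5, 86.4 and 94.1 CPM (log2 fold change 1.05, SE 0.14, adjusted p = 0.000524). Id3, an inhibitor of E proteins, had the largest fall of the list, at 9.42, 10.8 and 24.8 CPM against 37.7, 69.1 and 149 CPM (log2 fold change -2.47, SE 0.19, adjusted p = 1.18e-05). Neither gene overlapped between the gates. Prdm1, which encodes the effector factor Blimp-1, rose by less (log2 fold change 0.75, adjusted p = 0.0216). Batf, Irf4 and Maf did not pass, at log2 fold changes of -0.34, 0.51 and 0.10 (adjusted p = 0.102, 0.26 and 0.658). Batf was called lower in 1 of 17 alternatives. With no block 1 gene of the list was called higher and 2 lower, and the calls of Id3 and Prdm1 were lost. The Id3 call was lost between the UMI quartiles of each sample as well. Prdm1 also lost its call without each tumour in turn, without ctr 3 the list had 2 higher and 3 lower, and on thinned cells 6 and 2 of 21.

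The resting and memory genes were the clearest group on the conventional side: of 17 tested, 0 rose and 8 fell in Treg cells, with a median of -0.80. Tcf7 (chr11:52252371-52283014, minus strand) stood at 6.73, 7.10 and 19.9 CPM in Treg cells and 118, 176 and 172 CPM in conventional cells (log2 fold change -3.78, SE 0.28, adjusted p = 0.000188). A Tcf7 UMI was found in 4.85% ± 2.20 of Treg cells and 44.1% ± 5.24 of conventional cells, and in 10.3% ± 3.23 of CD8 T cells. Klf3, a repressor of the Krüppel family, and Slamf6, a receptor of less differentiated T cells, fell with it. Klf3 stood at 3.36, 6.31 and 11 CPM against 51.6, 89.2 and 74.5 CPM (log2 fold change -3.34, SE 0.26, adjusted p = 1.29e-05). Slamf6 stood at 16.2, 25.8 and 21.5 CPM against 62.9, 127 and 104 CPM (log2 fold change -2.19, SE 0.16, adjusted p = 8.3e-06). For these 3 genes the conventional values were above all Treg values. The unblocked fit called 0 genes of the list higher and 6 lower, without ctr 3 0 of 16 were higher and 5 lower, and on thinned cells 0 of 14 and 5.

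Receptors of migration moved both ways: of 20 tested, 3 rose and 9 fell, with a median of -0.35. S1pr1, the receptor by which T cells leave tissue, stood at 8.75, 8.42 and 16.2 CPM against 98.1, 144 and 119 CPM (log2 fold change -3.39, SE 0.22, adjusted p = 2.82e-06). Itgb1, the beta-1 integrin, and Cxcr3, a receptor of type 1 helper cells, were lower as well. Itgb1 stood at 99.6, 108 and 147 CPM against 286, 443 and 359 CPM (log2 fold change -1.60, adjusted p = 2.36e-05), and Cxcr3 at 64.6, 105 and 93.4 CPM against 111, 314 and 255 CPM (log2 fold change -1.29, adjusted p = 0.000179).

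The genes of this group that rose were Itgae, Itgav and Ccr8. Itgae, which encodes the epithelial-binding integrin CD103, stood at 44.1, 67.1 and 20.5 CPM against 7.55, 2.88 and 1.77 CPM (log2 fold change 3.18, SE 0.34, adjusted p = 0.000125). Itgav, the alpha-v partner chain of Itgb8, stood at 531, 264 and 347 CPM against 187, 63.3 and 89.6 CPM (log2 fold change 1.79, adjusted p = 5.67e-06). Ccr8, a chemokine receptor of tumour Treg cells, stood at 975, 610 and 669 CPM against 517, 302 and 295 CPM (log2 fold change 1.04, SE 0.09, adjusted p = 2.51e-05). All Treg values of these genes were above all conventional values. Ccr2 and Ccr7 did not pass (log2 fold changes of -0.13 and 0.11, adjusted p = 0.65 and 0.97). No block meant 0 of the 20 genes called higher and 4 lower, with the calls of Itgae and Ccr8 lost. On thinned cells 4 of 18 were higher and 4 lower, with a median of -0.08.

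**Figure D4:**
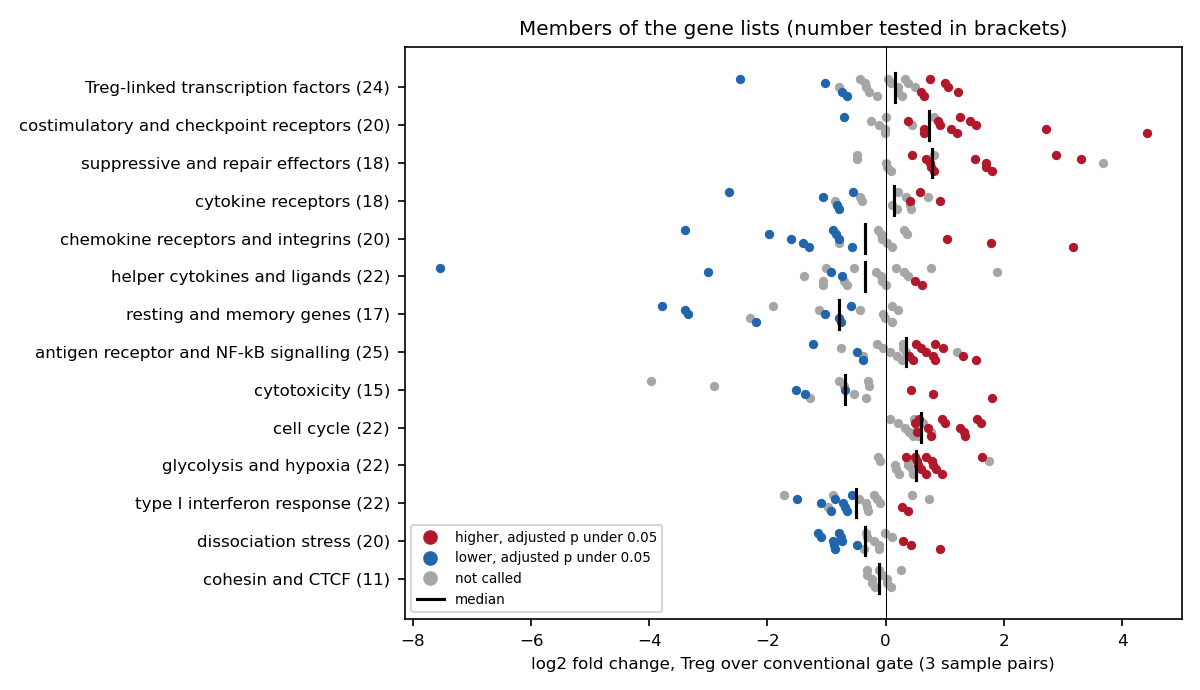
Log2 fold changes, Treg over conventional, of the tested members of each gene list; each point is a gene, and calls at an adjusted p below 0.05 are coloured. Suppression and repair genes hold 11 calls above 0 and 0 below, and resting and memory genes 0 above and 8 below.

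Among 22 helper cytokine and ligand genes tested, 2 rose and 4 fell, with a median of -0.35. Cd40lg (chrX:57212143-57224042, plus strand), the ligand by which CD4 cells help B cells and dendritic cells, stood at 16.8, 29.5 and 34.7 CPM against 169, 239 and 235 CPM. The values were far apart (log2 fold change -3.00, SE 0.14, adjusted p = 4.08e-07). A Cd40lg UMI was found in 13.8% ± 3.79 of Treg cells and 54.5% ± 5.09 of conventional cells, against 1.19% ± 0.52 of CD8 T cells. Tnf, the inflammatory cytokine, fell by less, at 109, 103 and 130 CPM against 182, 193 and 199 CPM (log2 fold change -0.74, SE 0.11, adjusted p = 0.0013). Ifng, the cytokine of type 1 helper cells, did not pass, at 32.6, 62.1 and 152 CPM against 118, 161 and 185 CPM (log2 fold change -1.05, adjusted p = 0.275). It was called lower in 7 of 17 alternatives. Il2 gave 0, 25 and 120 UMIs in the Treg sums and 18, 3 and 38 in the conventional sums and did not pass either (log2 fold change -1.01, adjusted p = 0.76). Few Treg cells held those UMIs: an Il2 UMI was found in 0.531% ± 0.494 of Treg cells, 8.09% ± 2.75 of conventional cells and 0.754% ± 0.200 of CD8 T cells, and in 0.3% ± 0.263 and 2.85% ± 2.52 of thinned Treg and conventional cells. An unblocked fit called 0 higher and 3 lower, leaving out ctr 3 gave 0 and 6, and thinned cells gave 1 and 7 of 17. Tnf lost its call in 4 alternatives, among them both that thinned the cells.

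Il22, Il17re and Il17a, genes of type 17 helper cells, whose cytokines act on epithelium, had nearly all their UMIs in the conventional gate, and Il22 and Il17re were called lower in Treg cells. Il22 gave 1 UMI in the Treg sums and 50 in the conventional sums, a ratio of rates of 228 with a 95% counting interval from 39.1 to 9185. Il17re, a receptor chain of this program, gave 1 and 59 UMIs, a ratio of 269 with an interval from 46.5 to 10810. Il17a gave 1 and 167 UMIs, a ratio of 762 with an interval from 135 to 30260, and was not among the genes tested. Its conventional UMIs were 62, 0 and 105, so this ratio rests on ctr 1 and ctr 3. These intervals cover counting error only. Il22 itself was found in 3, 1 and 7 conventional cells, so its total rests on few cells. The receptor chains of MAIT cells (TRAV1 with TRAJ33) were found in 0 of 396 conventional cells, which allows a share of up to 0.758%. Il17re, Il17a and these chains were looked at after the values of Il22 had been seen.

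Cytokine receptors moved both ways: of 18 tested, 3 rose and 5 fell, with a median of 0.15. Il2rb, the beta chain of the IL-2 receptor, stood at 636, 629 and 550 CPM against 435, 469 and 324 CPM (log2 fold change 0.58, SE 0.09, adjusted p = 0.00178). Il6ra, the receptor of interleukin 6, stood at 5.05, 7.89 and 5.65 CPM against 37.7, 46.1 and 33.7 CPM (log2 fold change -2.66, SE 0.27, adjusted p = 7.25e-05). Tgfbr2, a receptor of TGF-beta, stood at 82.4, 75 and 80.5 CPM against 166, 164 and 167 CPM (log2 fold change -1.06, adjusted p = 0.000109). None of these overlapped between the gates. Il7r, the receptor of the survival cytokine interleukin 7, stood at 237, 158 and 175 CPM against 478, 204 and 327 CPM, with values that overlapped between tumours though each pair fell (log2 fold change -0.80, SE 0.12, adjusted p = 0.00149). Taking the block away left 2 called higher and 2 lower and lost Il7r. Its call was also lost between the UMI quartiles of each sample and with gates and sums on thinned cells. An Il7r UMI was found in 58.6% ± 6.04 of Treg cells and 57.0% ± 14.4 of conventional cells. In cells thinned to equal depth the shares were 33.2% ± 7.18 and 40.7% ± 17.4. Without ctr 3 the list had 1 higher and 3 lower, with Il2rb lost, without ctr 1 it had 3 and 3, and on thinned cells 3 and 1 of 15.

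Of 25 genes of receptor and NF-kB signalling tested, 11 rose and 3 fell, with a median of 0.35. Dusp4, a phosphatase induced by receptor signals, rose (log2 fold change 1.31, adjusted p = 7.76e-05), and so did Socs2 (1.52). Socs3, a brake on interleukin 6 signals, fell, at 60.2, 74.2 and 79.4 CPM against 172, 144 and 180 CPM (log2 fold change -1.23, adjusted p = 0.000108). Nr4a1, an early gene of receptor signals, did not pass (log2 fold change 0.07, adjusted p = 0.787). The fit lacking the block called 5 higher and 1 lower. Without ctr 1 these were 7 and 2, on thinned cells 9 and 1 of 24, and without ctr 3 they were 5 and 1, while Socs2 lost its call without ctr 2 and without ctr 3.

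Glycolysis genes were higher in 12 of 22 tested and lower in 0, with a median of 0.52. Hilpda, a lipid droplet protein of low oxygen, led them at 641, 434 and 427 CPM against 245, 121 and 127 CPM (log2 fold change 1.64, SE 0.11, adjusted p = 4.83e-06). The unblocked fit called 2 higher. Of 22 cell cycle genes 12 were called higher and 0 lower at full depth, with a median of 0.60, among them Mki67 at 125, 83.9 and 87.5 CPM against 73.0, 34.5 and 19.5 CPM (log2 fold change 1.33, adjusted p = 0.0101). The direction depended on how depth was made equal. With gates kept and cells thinned only before summing, 2 of 20 were higher and 0 lower, with a median of 0.36. With gates and sums made on thinned cells 0 of 19 were higher and 3 lower, with a median of -0.61, and between the UMI quartiles of each sample 0 of 16 were higher and 1 lower, with a median of -0.42. At full depth 2 were called higher without ctr 2, 3 without ctr 3 and 1 with no block, and Mki67 was lost without ctr 2.

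Genes induced by type I interferon were lower in 8 of 22 tested and higher in 2, with a median of -0.50. Ifit3 stood at 24.9, 68.9 and 57.3 CPM against 99.4, 127 and 174 CPM (log2 fold change -1.50, adjusted p = 0.000491), and shares sequence with its near copy Ifit3b. With no block 0 were called in either direction by edgeR, without ctr 3 0 were higher and 2 lower, and without ctr 1 1 and 5. On thinned cells 2 of 19 were higher and 1 lower. Genes of dissociation stress, which rise while tissue is digested, were lower in 9 of 20 and higher in 3, with a median of -0.36. Hspa1b, a heat shock protein whose reads can be split with its near copy Hspa1a, stood at 963, 1222 and 1886 CPM against 1978, 2910 and 4190 CPM (log2 fold change -1.15, adjusted p = 1.84e-06). An unblocked fit called 0 higher and 2 lower, and leaving out ctr 3 gave 1 and 8. Of 15 cytotoxicity genes 3 rose and 3 fell. Klrk1, which encodes the activating receptor NKG2D, fell (log2 fold change -1.52, adjusted p = 0.0275), a call lost without ctr 1 and without ctr 2. With ctr 3 left out 2 of the 15 were higher and 5 lower, and on thinned cells 2 of 13 and 6. Of 11 genes of CTCF and cohesin, the complex that CTCF halts on chromatin, 0 passed in either direction, and Ctcf stood at 75.7, 84.4 and 89.4 CPM against 66.7, 83.5 and 86.1 CPM (log2 fold change 0.09, adjusted p = 0.777).

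Among genes of no list with a mean of at least 50 CPM in the higher gate, Calca led the called rises in Treg cells. It encodes the neuropeptide CGRP and calcitonin. Calca (chr7:114631478-114636357, minus strand) stood at 123, 34.2 and 330 CPM against 12.6, 2.88 and 28.4 CPM (log2 fold change 3.46, SE 0.17, adjusted p = 5.46e-07). The tumours differed widely in level, and the Treg sum was the higher one in each, while the call was lost with no block. It was also lost with a Treg gate of cells with a Foxp3 UMI and with a conventional gate of at most 1 gene. Rln3, which encodes the peptide relaxin 3, stood at 76.4, 177 and 116 CPM against 7.55, 31.7 and 20.4 CPM (log2 fold change 2.68). The Rln3 call was lost between the UMI quartiles of each sample. Pcyt1a, an enzyme of phosphatidylcholine synthesis, Neb, the muscle protein nebulin, Sv2c, a synaptic vesicle protein, and Swap70, an actin-binding signalling protein, rose by 3.12, 2.96, 2.80 and 2.26 on the log2 scale. On the other side Ehd3, an endosome protein, Ly6c2, a surface marker of memory T cells and monocytes, and Thada fell by 2.79, 2.48 and 2.45. Ly6c2 shares reads with its near copy Ly6c1 and stood at 25.2, 226 and 71.9 CPM against 231, 881 and 399 CPM, so that the highest Treg value lay just below the lowest conventional one. The calls of Neb, Sv2c and Ly6c2 were lost without ctr 3.

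Some genes had no UMI in the conventional sums. Those below were picked for that after their values were seen, so their folds are a description. They passed the filter on low counts through the Treg sums alone. The conventional sums held fewer UMIs, and how many tested genes had no UMI there is not given here. Flicr, a long noncoding RNA of the Foxp3 locus, gave 15, 30 and 35 UMIs in the Treg sums and 0 in each conventional sum. Against a floor of 3 counts over the group it was at least 5.85-fold higher. It lies beside a gate gene, so it is close to what the gate used. Rragd, a GTPase that signals amino acids to mTORC1, gave 50, 42 and 55 UMIs and was at least 10.7-fold higher by the same floor. Dnah7a, a dynein chain of cilia, gave 68, 46 and 45 UMIs and was at least 11.6-fold higher.

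Markers of other cells were read in both gates. The summed level of macrophage markers was 1173 to 2917 CPM in the Treg sums and 1232 to 4926 CPM in the conventional sums, against 31037 to 34565 CPM in myeloid cells and 1329 to 2150 CPM in CD8 T cells. Of 14 such markers 13 were tested and 0 were called by edgeR. In alternatives these markers were called: with gates and sums on thinned cells 6 of 10 macrophage, 4 of 4 dendritic and 2 of 2 natural killer markers were lower in Treg cells, with medians of -1.93, -2.09 and -2.16. With a conventional gate of at most 1 gene 6 macrophage and 4 dendritic markers were lower, and without ctr 2 4 of 7 dendritic markers were. Between the UMI quartiles 1 macrophage and 2 natural killer markers were lower. Some calls went the other way. In Treg cells 1 macrophage marker was higher without ctr 1, with full gates thinned before summing, and without cells of high Scrublet score. Without cells with 2 macrophage genes 1 macrophage, 1 dendritic and 1 B or plasma cell marker were higher, and 1 macrophage marker lower. An epithelial marker was higher without ctr 2 and with no filter on low counts. Natural killer markers (8 genes) summed to 318 to 603 CPM and 551 to 1089 CPM, dendritic markers (13 genes, 7 of them tested) to 2533 to 5496 CPM and 1759 to 6770 CPM, with Siglech at 0 in both. Of the epithelial markers Krt8, Krt19 and Cldn4 were at 0 in both gates. Their part in the results was not tested beyond leaving out cells with 2 macrophage genes, after which 507 genes were called higher and 431 lower.

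The receptor sequences gave measures that the gates had not used. Pairs of cells sharing a clonotype were 8.73, 10.3 and 12.4 per 1000 pairs of Treg cells and 5.32, 1.21 and 1.75 per 1000 pairs of conventional cells. The Treg gate was higher in 3 of 3 tumours and the values did not overlap (mean 10.5 ± 1.85 against 2.76 ± 2.23, exact paired permutation test, two-sided, p = 0.25, the smallest possible with 3 pairs, adjusted over 6 measures 0.375). Cells in clonotypes of at least 3 cells were 44.0%, 46.6% and 51.8% of Treg cells with a pair and 17.4%, 0% and 8.74% of conventional cells. Such a share grows with the number of cells sampled. Cells with a pair numbered 361, 401 and 463 in the Treg gate and 132, 58 and 206 in the conventional gate. The 0 of ctr 2 is 0 of 58 cells, which allows a share of up to 5.17%. Drawn down to an equal 50 cells, the Treg gate had 41.5 ± 1.00 clonotypes and the conventional gate 47.0 ± 2.12. By tumour these were 42.5, 41.4 and 40.5 against 44.6, 48.5 and 47.9. A second alpha chain was found in 12.9% ± 2.78 of Treg cells and 8.39% ± 2.94 of conventional cells (exact paired permutation test, p = 0.25, adjusted 0.375). The median cell had 11 ± 2 beta chain UMIs in the Treg gate and 9.83 ± 1.44 in the conventional gate (exact paired permutation test, p = 0.5, adjusted 0.6). The part of receptor depth in the second chains was not tested. The beta junction was 41.4 and 41.7 bases long on average (exact paired permutation test, p = 0.75).

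**Figure D5:**
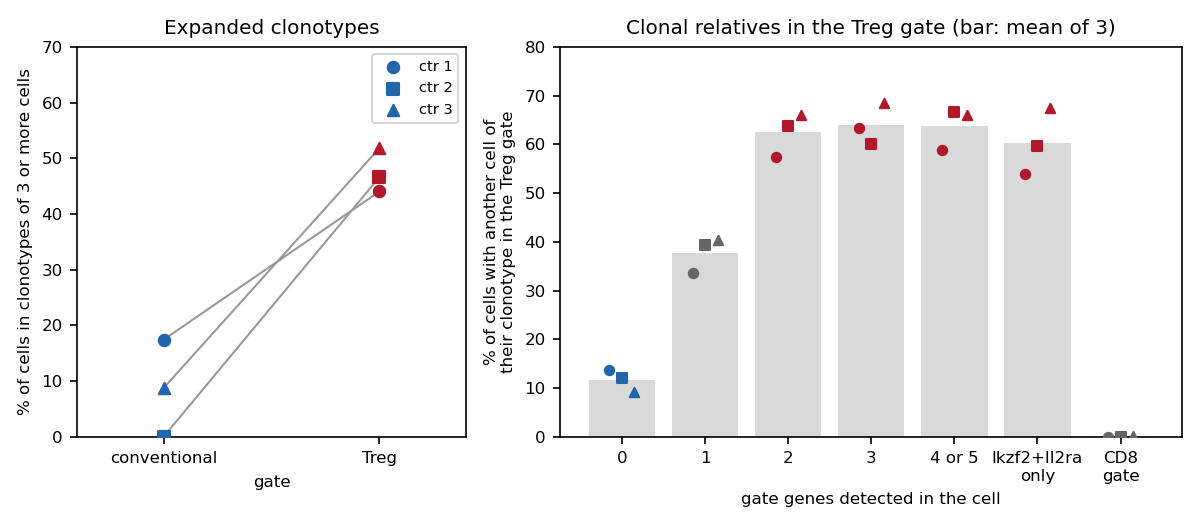
Left, percent of cells in clonotypes of at least 3 cells in each gate, with lines joining the gates of 1 tumour; right, percent of cells with another cell of their clonotype in the Treg gate, by number of gate genes, with bars for the mean of 3. The Treg points lie between 44.0% and 51.8% on the left, above the conventional ones, and the right panel goes from 11.6% with no gate gene to 62.5% with 2. The share on the left grows with the number of cells in a gate, which was larger for Treg cells in each tumour.

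Some clonotypes lay across both gates: 12, 6 and 11 in the 3 tumours. They held 13.9%, 10.5% and 16.6% of the Treg cells with a pair and 13.6%, 12.1% and 9.22% of the conventional cells with a pair. Relatives in the Treg gate were found for 11.6% ± 2.24 of cells with no gate gene, 37.8% ± 3.69 of cells with 1, 62.5% ± 4.52 of cells with 2 and 63.8% ± 4.41 of cells with 4 or 5. Cells that rested on Ikzf2 and Il2ra alone had such relatives in 60.3% ± 6.81. The relatives counted include other cells of the same kind, so this share cannot tell whether such cells are Treg cells. The Treg gate also held more cells with a pair in each tumour, and shares of relatives grow with that number. Relatives in the conventional gate were found for 12.2% ± 7.95 of the cells that rested on Ikzf2 and Il2ra alone. That share was 12.9% ± 4.06 with 4 or 5 gate genes and 23.2% ± 14.8 with none. CD8 T cells had relatives in the Treg gate in 2 of 3502 (0.0571%). They are another lineage, so this share cannot tell Treg cells from conventional CD4 cells.

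The same contrast was then set against the cko tumours, whose Treg gate held 570 cells and conventional gate 807. Of 9716 genes tested for a difference of the Treg effect between genotypes (edgeR interaction over 12 sums), 105 (1.08%) passed, 43 (0.443%) with a positive difference, cko minus ctr, and 62 (0.638%) with a negative one. With cko 1 and 3 added together these were 32 and 37. Leaving out 1 replicate at a time gave 25 to 61 positive and 24 to 70 negative. In cko, Ccr8 stood at 458, 185 and 494 CPM in Treg cells and 450, 192 and 568 CPM in conventional cells, so that the effect was 1.05 in ctr and -0.08 in cko (difference -1.12, adjusted p = 6e-06). Calca stood at 9.32, 15.4 and 19.7 CPM in cko Treg cells against 14.9, 10.3 and 18.3 CPM (effects 3.47 and 0.08, difference -3.39, adjusted p = 3e-06). Pdcd1 moved from 0.65 to -0.18 (difference -0.83, adjusted p = 0.00122), and Gata3 from 1.06 to 0.20 (difference -0.87, adjusted p = 0.018). The Gata3 difference was lost without ctr 1, ctr 3, cko 1 or cko 2, and the other 3 passed in all 8 settings run. The make-up of the Treg gate differed between the genotypes. Cells resting on Ikzf2 and Il2ra alone were 33.3%, 27.9% and 34% of it in cko, against 21.9%, 16.6% and 18.7% in ctr. Those with at least 3 gate genes were 44.4%, 48.1% and 43.5% in cko, against 56.7%, 67.7% and 58.5% in ctr. Whether the 2 genotypes' gates hold cells of the same kind, and the part of this make-up in the differences, was not tested.

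For other genes the difference was positive. The Cd40lg gap was narrower in cko, and a Ccr2 gap was found there. Cd40lg stood at 102, 65.1 and 94.1 CPM in cko Treg cells against 300, 194 and 314 CPM in cko conventional cells (effects -2.99 and -1.63, difference 1.36, adjusted p = 4.6e-05). Ccr2, the receptor of monocyte-attracting chemokines, stood at 228, 113 and 231 CPM against 80.5, 61.6 and 101 CPM in cko (effects -0.12 and 1.19, difference 1.31, adjusted p = 0.00022). Both genes lay apart between the cko gates. The Ctla4 effect was 1.53 in ctr and 1.06 in cko (difference -0.48, adjusted p = 0.0417), and that of Ctcf, the deleted gene, went from 0.09 to -0.64 (difference -0.74, adjusted p = 0.0417). With cko 1 and 3 added together neither passed (adjusted p = 0.166 and 0.125), and Ctcf also lost its call without each of the 6 replicates in turn, and Ctla4 without each of them but ctr 3.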

How the data were processed

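Cell by gene counts of UMIs and tables of T cell receptor contigs, 1 set per tumour, were used as deposited by the authors. Cell Ranger 7.0.0 and the build mm10 are named for them, per the submitters' processing notes. Cells were gated, and their counts summed per sample and gate, in Python 3.11.15. Sums were compared in R 4.3.3 with edgeR 4.0.16 (TMM scaling, filterByExpr, quasi-likelihood test, Benjamini-Hochberg adjustment) with the tumour as a block, since both gates come from 1 tumour. Deviations from the group means correlated within tumours at 0.394, 0.126 and 0.395 over 2746 genes. DESeq2 1.42.0 was an alternative. Doublets were not removed. Scrublet scores served only for an alternative. Shares of cells were also taken after thinning to 2000 UMIs. CPM in the figure by number of gate genes, in CD8 T cells and in myeloid cells is plain, elsewhere TMM-scaled (over all 12 sums in the comparison with cko).

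The members, gene lists and tests were chosen with earlier results of these data known. Named genes were fixed key genes, the 10 largest called changes in each direction with a mean of at least 50 CPM in the higher gate and 1 direction in 3 of 3 tumours (receptor segment, ribosomal, mitochondrial and unnamed genes left out), the largest called member of each list in each direction, and the 4 largest interactions in each direction. Others named, the invariant receptor chains and the J and D segment counts were chosen after their values were seen. Gate genes were left out of the results. Intervals are exact at 95% and limits of 0 are 3 counts; both cover counting error only. The replicates are labelled as biological. Tests were tried on simulated data.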

Additional observations from a re-analysis of the deposited data

Results flagged for a closer look

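For 15 named genes the Treg effect itself differed between the genotypes in the edgeR interaction test (log2 difference, cko minus ctr). The difference was positive for Rln3 (3.26), Nsg2 (1.86), Ifit3 (1.63), Cd70 (1.58), Cd40lg (1.36) and Ccr2 (1.31). For 3 of these the genes were lower in ctr Treg cells and the gap narrowed or closed in cko: Nsg2 went from -3.35 to -1.48, Ifit3 from -1.49 to 0.14 and Cd40lg from -2.99 to -1.63. The difference was negative for Calca (-3.39), Ier5l (-1.83), Cd200r1 (-1.55), Tent5a (-1.40), Ccr8 (-1.12), Gata3 (-0.87), Pdcd1 (-0.83), Ctcf (-0.74) and Ctla4 (-0.48). Leaving out 1 replicate lost Ifit3 (without cko 1, cko 3 or ctr 3), Cd70 (without ctr 3), Gata3, Ctcf and Ctla4.

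Rln3 was low in cko conventional cells, with 3 UMIs in all against 214 in the cko Treg cells, a ratio of rates of 70.2 with a 95% counting interval from 23.7 to 343. In ctr the counts were 1331 in Treg cells and 40 in conventional cells, a ratio of 7.30 with an interval from 5.33 to 10.3, so the size of the difference rests on 3 UMIs. Rln3 was lower in cko than in ctr in both gates. Treg cells stood at 40.8 ± 17.1 CPM in cko and 124 ± 51.4 CPM in ctr. Conventional cells stood at 0.641 ± 0.679 and 19.4 ± 11.6 CPM (SD, n = 3).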

How the results depend on the processing

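The main counts of 450 genes higher and 389 lower became 203 and 173 with no replicate block, 218 and 196 with DESeq2, and 251 and 195 with gates and sums on thinned cells. With no filter on low counts 742 were higher, and without cells with Mki67 or Top2a 227 were lower. Leaving out 1 tumour gave 153 to 317 higher and 148 to 312 lower. The interaction counts were 32 and 37 with cko 1 and 3 added (chosen once the data had been seen) and 25 to 61 and 24 to 70 when 1 replicate was left out. Of 64 named genes that were called, 31 lost their call with no replicate block, the fit without the pairing of gates by tumour. Lta turned to -0.0086 with a conventional gate of at most 1 gene, and Mki67 to -0.14 between the UMI quartiles and -0.0545 with gates on thinned cells, none of them called. The cause was not tested. The 6 receptor measures kept their direction and stayed within their spread, except the junction length, which ran from -0.64 to 0.20 bases around a difference of -0.28. Conventional cells of ctr 2, the smallest sum, limit the depth.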
